A study of Mus musculus with 2 samples.

Results

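A set of 10 transcription factors of epithelial, neural crest and mesenchymal identity, Sox9, Pax3, Klf5, Nr2f1, Snai1, Snai2, Twist1, Zeb1, Zeb2 and Prrx1, were followed through the single-cell transcriptomes of EMT6 tumours. EMT6 is a mammary carcinoma line of BALB/c mice. The genes were chosen by symbol, and all 10 were present among the 55450 genes of the count matrices. One library came from tumours given Olaparib, an inhibitor of poly(ADP-ribose) polymerase, with LLY-283, an inhibitor of the arginine methyltransferase PRMT5 (Olaparib + LLY-283). The other came from tumours given the same agents with anti-PD-1, an antibody that blocks an inhibitory receptor of T cells (Combo). LLY-283 was dosed at 50 mg/kg for 3 days followed by a pause of 4 days, Olaparib at 50 mg/kg each day, and anti-PD-1 at 200 µg every 3 days. Both groups therefore carried Olaparib and LLY-283, all tumours grew under the skin of BALB/c mice, and each library pooled the tumours of 3 mice. With 1 library per group no test between groups was possible, so intervals are exact 95% intervals for counting error and do not cover differences between mice.

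Snai1, Snai2, Twist1, Zeb1, Zeb2 and Prrx1 are known as drivers of the epithelial-mesenchymal transition, in which epithelial cells lose their junctions and take on mesenchymal traits. Snail and ZEB proteins repress junction genes such as Cdh1 through short DNA motifs called E-boxes, and TWIST1 binds E-boxes as a basic helix-loop-helix protein. Sox9 and Klf5 are regulators of mammary and other epithelial progenitors, Pax3 specifies neural crest and muscle precursors, Nr2f1 is an orphan nuclear receptor of the neural crest, and Prrx1 is a homeobox gene of limb and connective tissue mesenchyme.

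Tumour cells were defined by at least 2 UMIs (unique molecular identifiers, each standing for 1 captured transcript) of Krt8 and Krt18 together and by less than 0.02% of UMIs from Tyrobp and Ptprc. This gave 8747 tumour cells of 16115 cells in Olaparib + LLY-283 and 2889 of 7542 in Combo, after cells in fibroblast clusters were set apart. Fibroblasts were the cells of clusters that carried fixed fibroblast markers, 230 and 78 cells. Of these, 49 and 38 also passed the keratin and myeloid limits for tumour cells and were counted as fibroblasts. Cells of other named clusters that passed these limits, 48 and 18, were counted as tumour cells instead. The classes were made from such markers, so marker levels describe them and do not test them. The 12 fibroblast markers summed to 2509 and 2595 CPM (UMIs per 1000000 UMIs of the class) in tumour cells and to 52830 and 53740 CPM in fibroblasts, and none was at 0 in tumour cells, where Col1a2 was the highest. Col5a2, a collagen chain, stood at 3.49 and 2.58 CPM in tumour cells and at 1741 and 1652 CPM in fibroblasts. Keratin was lower but not absent in fibroblasts, with Krt8 at 258 and 230 CPM against 859 and 796 CPM in tumour cells. Epcam was low in the tumour cells, at 3.67 and 3.09 CPM. The gate had no sharp edge, since 980 and 109 tumour cells had exactly 2 keratin UMIs, and 1250 and 245 cells that met the other limits had exactly 1.

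The libraries differed in depth and in quality. A tumour cell held a median of 9155 UMIs in Olaparib + LLY-283 and 47258 in Combo, and a fibroblast 3827 and 20370.5. In Combo, 21.03% of cells failed the mitochondrial limit of 20%, against 0.534% in Olaparib + LLY-283. The doublet caller marked 18.3% of the passing cells of Olaparib + LLY-283 and 1.83% of those of Combo, and 39 cell barcodes occurred in both libraries. In pooled counts, a lower sum from fewer transcripts per cell and one from fewer expressing cells cannot be told apart, so shares of cells were also compared after every cell was thinned at random to 5000 UMIs.

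Promoter sequences are shown for 3 genes that were picked by the levels described next. Twist1 was read in both cell classes, its paralog Twist2 almost only in fibroblasts, and Prrx1 highest in fibroblasts. A link between the sequences and these levels was not tested. They are the 250 bases before the start of transcription in RefSeq (GRCm38.p6), and the set of sequences used held 5 of the 10 genes. The Twist1 sequence lies on the plus strand at chr12:33957421-33957670, that of Twist2 on the plus strand at chr1:91801211-91801460 and that of Prrx1 on the minus strand at chr1:163313651-163313900. Each is shown 5′ to 3′ along the gene. In GENCODE M21, used for gene overlaps below, Prrx1 begins at chr1:163313710, so the last bases of its window lie inside that gene model. Capitals mark the letters CCAAT and TATAAA, each searched on both strands.
Twist1: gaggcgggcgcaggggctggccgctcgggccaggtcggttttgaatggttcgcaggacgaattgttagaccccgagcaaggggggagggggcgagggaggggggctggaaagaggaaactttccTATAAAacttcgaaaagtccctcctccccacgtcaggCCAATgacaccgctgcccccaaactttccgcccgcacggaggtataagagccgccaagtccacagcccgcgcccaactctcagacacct
Twist2: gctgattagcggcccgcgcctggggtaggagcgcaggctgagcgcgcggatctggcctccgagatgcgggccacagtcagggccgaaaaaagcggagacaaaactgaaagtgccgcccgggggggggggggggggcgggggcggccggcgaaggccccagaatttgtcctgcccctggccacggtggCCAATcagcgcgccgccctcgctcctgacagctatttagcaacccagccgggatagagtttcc
Prrx1: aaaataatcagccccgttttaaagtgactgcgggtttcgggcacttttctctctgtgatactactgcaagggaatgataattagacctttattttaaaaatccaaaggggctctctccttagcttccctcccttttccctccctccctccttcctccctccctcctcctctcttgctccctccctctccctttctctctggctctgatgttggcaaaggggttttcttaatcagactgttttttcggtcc
The Twist1 window held 1 CCAAT and 1 TATAAA, the Twist2 window 1 CCAAT, and the Prrx1 window neither. Among 32851 windows of this length CCAAT was present in 33.8% and TATAAA in 12.4%. The E-box letters CANNTG, which read the same on both strands, were absent from all 3 windows and present in 66.2% of all windows.

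In tumour cells each of the 10 genes was detected in both libraries, and factors of epithelial and of mesenchymal type were present side by side. Sox9 stood at 64.3 CPM [62.7 to 65.9] in Olaparib + LLY-283 and 70.8 CPM [69.4 to 72.2] in Combo, and Klf5 at 81.5 CPM [79.7 to 83.4] and 69.7 CPM [68.3 to 71.1]. Twist1 stood at 119 CPM [117 to 121] and 112 CPM [111 to 114], and Prrx1 at 88.3 CPM [86.4 to 90.2] and 88.6 CPM [87.1 to 90.2]. The lowest sums were those of Snai2, at 7.22 and 10.1 CPM, and Zeb1, at 11.95 and 16.9 CPM. Pax3 read 30.8 and 36.7 CPM, Nr2f1 65.1 and 80.2 CPM, Snai1 38.9 and 39.6 CPM, and Zeb2 64.1 and 68.2 CPM.

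None of the 10 genes differed by 1.5-fold between Combo and Olaparib + LLY-283 in tumour cells, where 8.52% of 17172 genes tested were at least 1.5-fold higher and 4.71% at least 1.5-fold lower. The median ratio was 1.08 for the 10 genes and 1.04 for all genes tested. Zeb1 had a ratio of 1.42 [1.32 to 1.52] and Snai2 one of 1.40 [1.27 to 1.53], so both intervals reached past the fold. Nr2f1 followed at 1.23 [1.19 to 1.27] and Pax3 at 1.19 [1.14 to 1.25]. Klf5 was below 1 at 0.855 [0.830 to 0.881], and Twist1 at 0.943 [0.920 to 0.966]. The ratio was 1.00 [0.976 to 1.03] for Prrx1 and 1.02 [0.977 to 1.06] for Snai1, and both intervals held 1. The keratin limit for tumour cells was a fixed count of UMIs, so it was harder to reach at the lower depth of Olaparib + LLY-283. Cells of unnamed clusters that failed the limits had higher Nr2f1 and Pax3 than tumour cells in both libraries. The mix of tumour clusters also differed between Olaparib + LLY-283 and Combo. Cluster 0 held 1276 and 111 tumour cells, cluster 2 held 1014 and 33, and cluster 16 held 102 and 486. The parts of the gate and of this mix in these ratios were not tested.

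**Figure D1:**
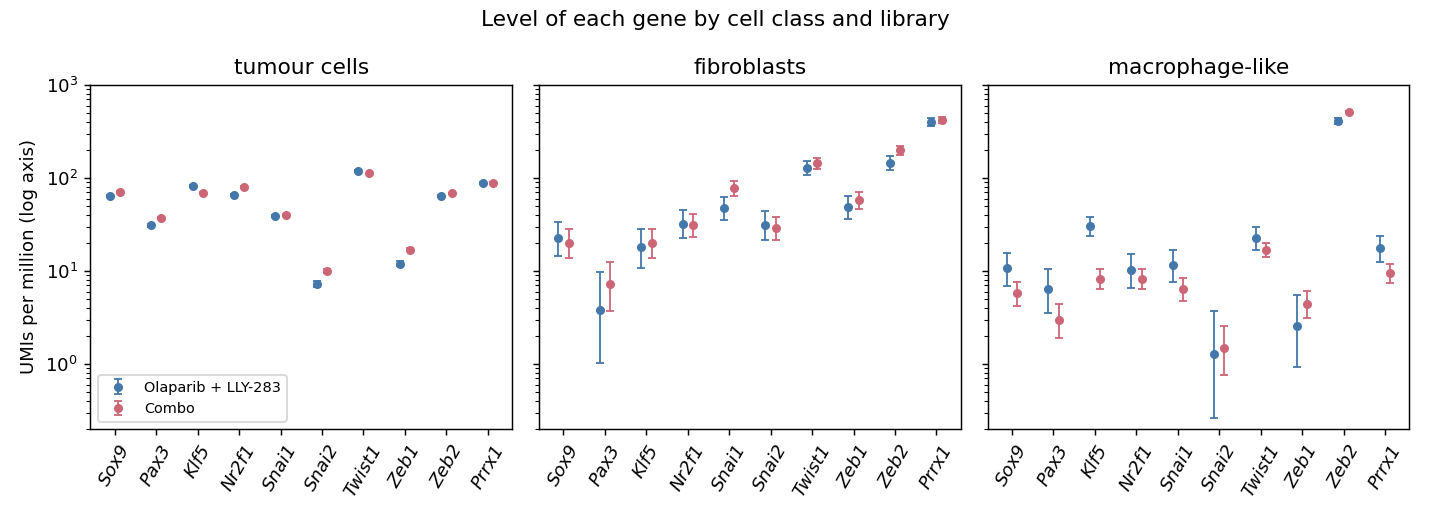
Level of the 10 genes in CPM (log axis) in tumour cells, fibroblasts and macrophage-like cells, with blue for Olaparib + LLY-283 and red for Combo. Points are sums over the cells of a class and bars exact 95% counting intervals. Prrx1 is highest in fibroblasts, at 402 and 420 CPM, and Zeb2 in macrophage-like cells, at 409 and 510 CPM.

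At equal depth the shares of tumour cells with a UMI were close between the libraries for some genes and further apart for others. With every cell thinned to 5000 UMIs, 7415 tumour cells of Olaparib + LLY-283 and 2755 of Combo were deep enough. Twist1 had a UMI in 43.4% [42.2 to 44.5] and 38.4% [36.5 to 40.2] of them, though the mean of 200 draws in Combo was 40.6%. Prrx1 was found in 34.8% and 34.4%, Klf5 in 30.9% and 27.9%, and Sox9 in 22.8% and 24.7%. Zeb1 was found in 5.72% [5.20 to 6.27] and 8.13% [7.14 to 9.21] and Snai2 in 3.48% [3.07 to 3.92] and 4.75% [3.99 to 5.62]. The intervals of Zeb1 and of Snai2 did not overlap between the libraries. Over 200 draws the mean share was 25.6% and 30.2% for Nr2f1 and 14.4% and 17.0% for Pax3. It was 17.6% and 17.8% for Snai1, and 27.0% and 28.4% for Zeb2. Without thinning the share of tumour cells with a Sox9 UMI was 34.5% and 64.2%.

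**Figure D2:**
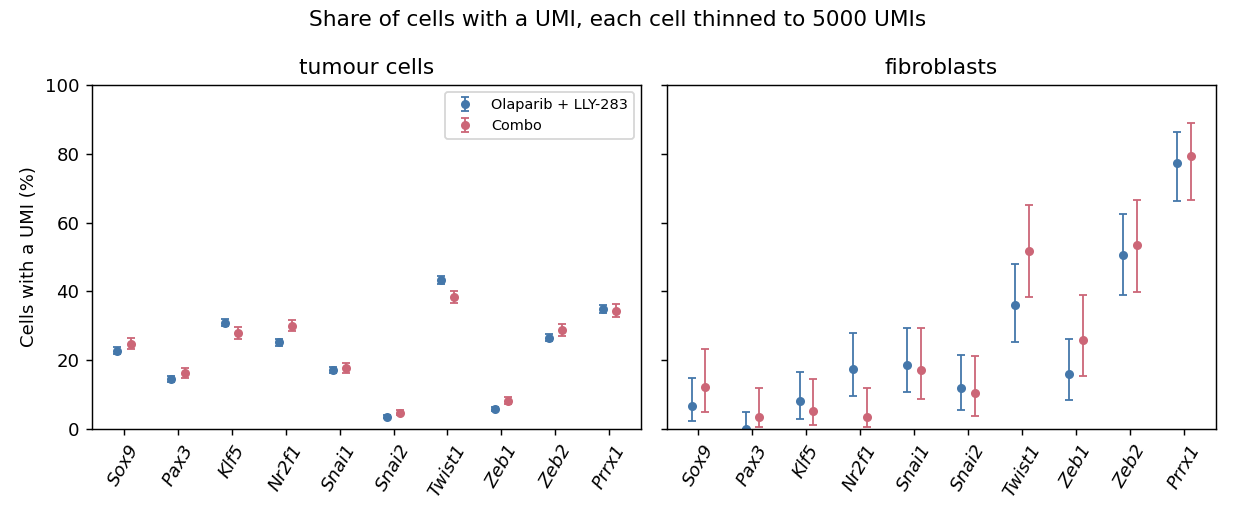
Share of cells with at least 1 UMI of each gene, in percent, after every cell was thinned to 5000 UMIs in 1 draw, for tumour cells (7415 and 2755 cells) and fibroblasts (75 and 58 cells). Bars are exact Clopper-Pearson 95% intervals. Prrx1 is found in 77.3% and 79.3% of fibroblasts and in 34.8% and 34.4% of tumour cells.

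Macrophage-like cells, in which most of these genes are not known to act, were read in the same way as a background, and the source of these reads was not tested. At the same 5000 UMIs, 58 such cells of Olaparib + LLY-283 and 574 of Combo had Sox9 in 8.62% and 2.79%, Twist1 in 10.3% and 7.32%, and Prrx1 in 8.62% and 4.88%. Their median depth before thinning was 1921 and 10435 UMIs. Zeb1 was seen in 0 of the 58 cells, a count that leaves room for a share of 5.17%, with an exact interval up to 6.16% that held the tumour share of 5.72%, and in 2.96% [1.74 to 4.70] of the 574, below the tumour share in Combo. Snai2 was seen in 1.72% [0.0436 to 9.24] and 1.05% [0.385 to 2.26], so in Olaparib + LLY-283 its share in tumour cells lay within the interval of the macrophage-like cells and in Combo above it. Zeb2 went the other way, with 70.7% and 85.4% of macrophage-like cells.

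Fibroblasts carried 4 of the 10 genes at no less than 2 times the tumour level in both libraries, Prrx1, Zeb1, Snai2 and Zeb2, where 11.7% of 15112 genes did so. Prrx1 read 402 CPM [364 to 442] and 420 CPM [390 to 453] in fibroblasts, 4.55-fold [4.12 to 5.02] and 4.74-fold [4.39 to 5.12] above tumour cells. Zeb1 read 48.4 and 57.8 CPM, 4.05-fold [3.00 to 5.37] and 3.42-fold [2.76 to 4.19] above. Snai2 read 31.3 and 28.9 CPM, 4.34-fold [2.96 to 6.15] and 2.87-fold [2.11 to 3.83] above. Zeb2 read 145 and 199 CPM, 2.27-fold [1.92 to 2.66] and 2.91-fold [2.60 to 3.25] above, and in Olaparib + LLY-283 its interval reached below 2. At a coarser clustering (resolution 0.8) Snai2, Zeb1 and Prrx1 stayed 2-fold higher in both libraries, and Zeb2 was 1.45-fold and 2.85-fold above.

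The other pole was made of Sox9, Klf5, Pax3 and Nr2f1, at least 2-fold lower in fibroblasts in both libraries, where 12.4% of the genes were. Fibroblasts held 0.354 [0.227 to 0.528] and 0.281 [0.193 to 0.395] of the tumour level of Sox9, and 0.221 [0.133 to 0.346] and 0.285 [0.196 to 0.401] of that of Klf5. For Pax3 the ratios were 0.123 [0.0336 to 0.316] and 0.197 [0.102 to 0.344], on 4 and 12 fibroblast UMIs. Nr2f1 sat on the threshold, with 0.496 [0.343 to 0.694] and 0.391 [0.292 to 0.513], and it was no longer 2-fold lower in both libraries with at least 5 keratin UMIs, with the mean of per-cell CPM or at resolution 0.8. Krt8, a keratin of epithelial cells that was part of the gate for tumour cells, had ratios of 0.301 [0.266 to 0.339] and 0.289 [0.261 to 0.320] in the same cells. The part of free tumour RNA in these fibroblast levels was not tested.

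Snai1 and Twist1 separated the classes least. Snai1 read 47.5 and 77.1 CPM in fibroblasts, 1.22-fold [0.904 to 1.61] and 1.95-fold [1.62 to 2.32] the tumour level. Twist1 read 129 and 143 CPM, 1.08-fold [0.908 to 1.28] and 1.28-fold [1.12 to 1.45] the tumour level. Its paralog Twist2, also a basic helix-loop-helix factor, read 0.0742 and 0.0566 CPM in tumour cells, on 7 and 8 UMIs, against 43.7 and 56.6 CPM in fibroblasts.

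**Figure D3:**
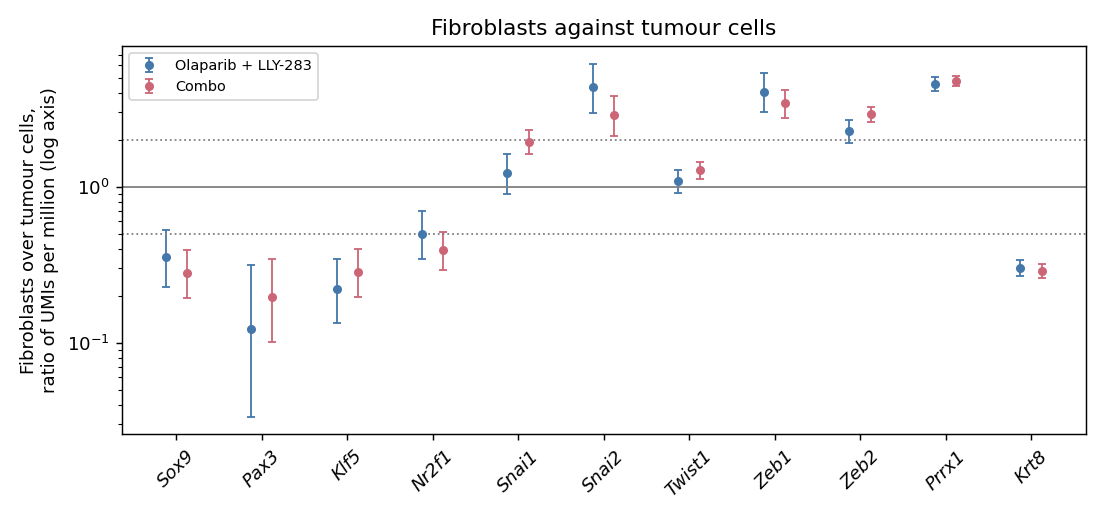
Ratio of CPM in fibroblasts to tumour cells (log axis) for the 10 genes and for Krt8, which was part of the gate for tumour cells, in Olaparib + LLY-283 (blue) and Combo (red). Bars are exact 95% counting intervals, the solid line is 1 and dotted lines are a 2-fold difference. Snai2, Zeb1, Zeb2 and Prrx1 lie above the upper dotted line, and Sox9, Pax3, Klf5 and Krt8 lie below the lower one.

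These class differences depended on which cells were called fibroblasts. When fibroblasts were instead gated cell by cell on at least 4 of 12 fibroblast markers with fewer than 2 keratin UMIs and no endothelial UMI, 849 and 114 cells qualified, and 0 of the 10 genes was 2-fold higher or lower in both libraries. Of those cells 675 and 79 lay outside the fibroblast clusters, and there Col5a2 stood at 7.82 and 13.1 CPM and Twist2 at 0.290 and 0 CPM. Prrx1 in them was 119 and 118 CPM and Nr2f1 125 and 187 CPM, while the gated cells inside the clusters had Prrx1 at 474 and 562 CPM and Nr2f1 at 11.9 and 14.9 CPM. With the doublet calls kept, 147 and 2 cells joined the fibroblasts, the 147 with Krt8 at 704 CPM, and 2 genes (Zeb1 and Prrx1) stayed 2-fold higher and 1 (Pax3) 2-fold lower.

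Between the libraries, Snai1 alone of the genes with enough UMIs differed by 1.5-fold in fibroblasts, at 1.62 [1.16 to 2.30] for Combo over Olaparib + LLY-283. Of the 10 genes 9 had at least 20 UMIs, and among 9186 genes 10.6% were at least 1.5-fold higher and 6.9% at least 1.5-fold lower. Pax3 was below that minimum, on 4 and 12 UMIs, with a ratio of 1.90 [0.577 to 8.1]. In the same fibroblasts S100a9, a neutrophil marker, read 244 and 396 CPM, and 8 neutrophil markers together 452 and 719 CPM, and their part in the result was not tested. Snai1 rested on 50 UMIs in 39 cells and 128 UMIs in 35 cells. At 5000 UMIs, over 200 draws, it was found in a mean of 18.4% of 75 fibroblasts and 26.0% of 58, and single draws in Combo ran from 12.1% to 37.9%. Zeb2 had a ratio of 1.37 [1.13 to 1.67], and the other intervals held 1. With fibroblasts gated on markers the ratio of Snai1 was 0.943, and with the doublet calls kept Snai1, Snai2, Zeb1, Zeb2 and Prrx1 were all at least 1.5-fold higher.

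The fibroblasts fell into a sub-cluster led by Clec3b, Tnxb and Dpt (173 and 50 cells) and one led by Crabp1, Tnc and Tagln (56 and 28 cells). Prrx1 read 348 CPM [307 to 392] and 334 CPM [303 to 369] in the former and 548 CPM [467 to 639] and 650 CPM [578 to 729] in the latter. Snai2 was on the other side, with 38.6 and 34.8 CPM in the former and 13.5 [3.68 to 34.6] and 13.3 [4.87 to 28.9] CPM in the latter. The intervals of Prrx1 did not overlap in either library, and those of Snai2 overlapped in both. In the Crabp1 sub-cluster the Snai2 intervals held the tumour levels of 7.22 and 10.1 CPM. Zeb1 there read 16.9 CPM [5.49 to 39.4] and 59.7 CPM [39.3 to 86.8]. The tumour levels of Zeb1 were 11.95 and 16.9 CPM, so its interval held the tumour level in Olaparib + LLY-283 and lay above it in Combo.

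Among tumour cells the genes with the widest range over clusters were Sox9, Klf5 and Nr2f1. Clusters 2 and 18 held 33 and 15 tumour cells in Combo and were left out. Over 13 clusters with at least 50 tumour cells in both libraries, Sox9 and Klf5 were both highest in cluster 8, led by Pgf, Adm, Dusp4 and F3. Sox9 read 206 CPM [194 to 218] and 219 CPM [209 to 230] there, and Klf5 198 CPM [187 to 210] and 210 CPM [200 to 221]. Nr2f1 was highest in cluster 10, led by Aspn, Mgp and Dcn, at 169 CPM [157 to 182] and 184 CPM [176 to 193], and read 26.8 and 42.5 CPM in cluster 8. Twist1 was highest in cluster 10 too, at 203 CPM [190 to 218] and 185 CPM [176 to 194].

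Prrx1 varied least among the 10 genes. Clusters 9 and 15 both had Gm42418 and Lars2 among their leading genes, and their tumour cells were shallower than tumour cells as a whole. In Olaparib + LLY-283 the medians were 4436 UMIs in cluster 9 and 2297 in cluster 15, against 9155 over all tumour cells. The medians in Combo were 12668 and 5306, against 47258. In Combo cluster 9 held the lowest level of all 10 genes. Leaving them out, the highest cluster exceeded the lowest by 1.504-fold and 1.496-fold for Prrx1, against 14.5-fold and 11.5-fold for Sox9, 5.35-fold and 4.92-fold for Klf5, and 6.32-fold and 4.36-fold for Nr2f1. Pax3 and Zeb1 were highest in cluster 15 in both libraries, Pax3 at 57.7 CPM [33.6 to 92.3] and 82.1 CPM [60.9 to 108]. Without those clusters the range of Pax3 was 1.51-fold and 2.08-fold. The clusters were made from the expression of these same cells, so the values are a description.

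**Figure D4:**
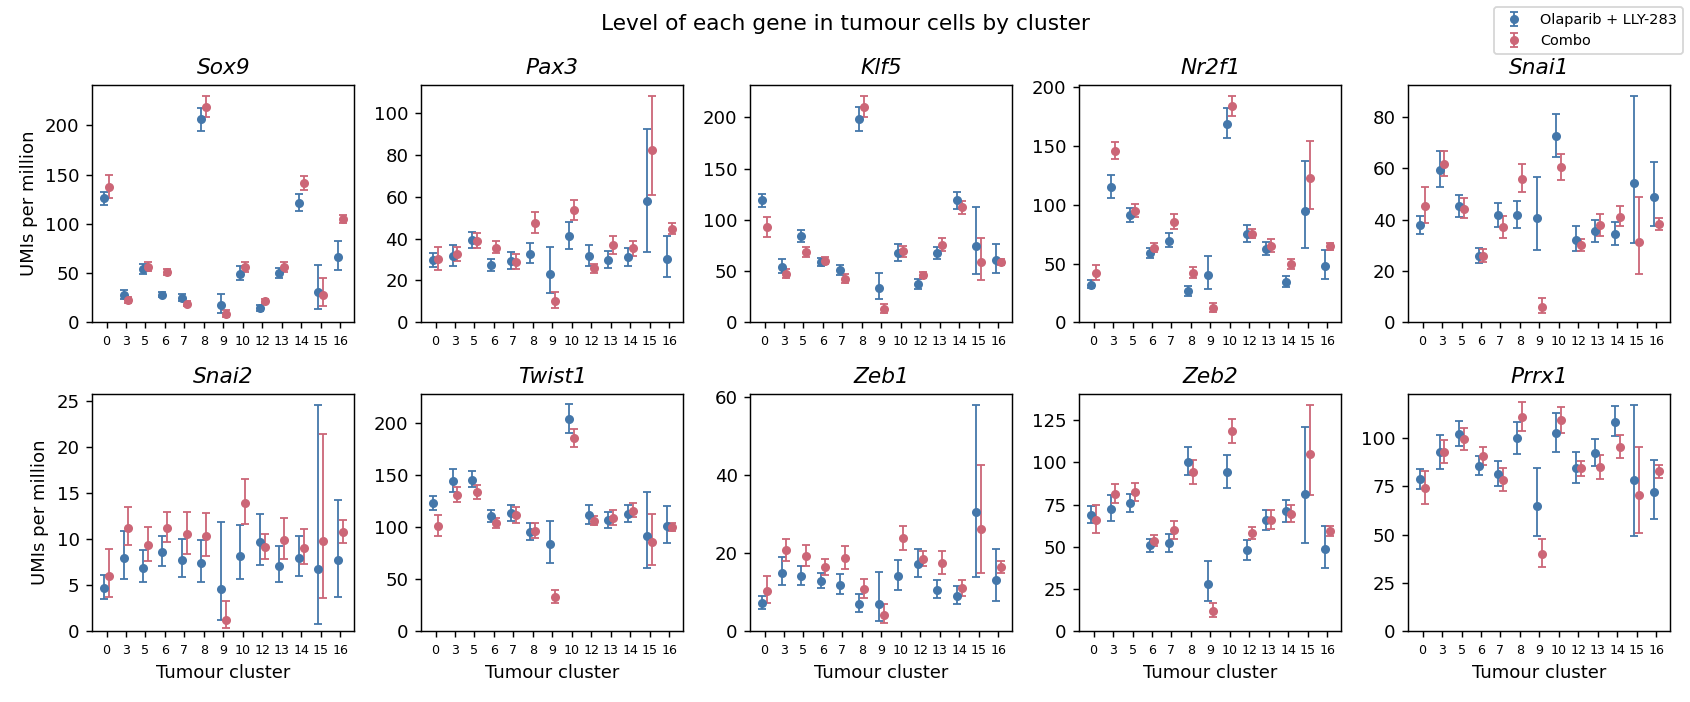
Level of each gene in CPM in tumour cells of the 13 clusters with at least 50 tumour cells in both libraries, blue for Olaparib + LLY-283 and red for Combo. Bars are exact 95% counting intervals. Sox9 and Klf5 peak in cluster 8 and Nr2f1 and Twist1 in cluster 10 in both libraries, while the tumour cells of clusters 9 and 15 have median depths of 4436 and 2297 UMIs in Olaparib + LLY-283 and 12668 and 5306 in Combo.

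Genes most alike in detection differed in the same way. Likeness was Pearson's r of log thinned UMIs across single tumour cells (7415 and 2755 cells, 9489 genes), which share library and depth, and the smaller of the values from both libraries was used. Sox9 was most like Adm (0.261), Mt1 (0.251) and Slc2a1 (0.242), and Klf5 most like Ptgs2 (0.221), Adm (0.198) and Areg (0.193). Nr2f1 was most like Ogn (0.220), Col3a1 (0.202) and Dcn (0.165). Zeb2 came with Malat1 (0.149) and Ahnak (0.113) and Twist1 with Cst3 (0.101). For Pax3, Snai1, Snai2, Zeb1 and Prrx1 no gene reached 0.1. These correlations are weak and are given as a description.

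At 5000 UMIs, mean co-detection in the same cell stayed within 1.5-fold of what the separate shares give. None of the 45 gene pairs was found together in at least 1.5 times the product of their shares in both libraries at 5000 UMIs. Over 200 draws the mean ratio of observed to expected double-positive tumour cells ran from 0.811 to 1.303 in Olaparib + LLY-283 and from 0.901 to 1.316 in Combo. It was above 1 in both libraries for 32 pairs and below 1 in both for 6. Sox9 and Klf5 formed the pair with the highest mean, 1.303 and 1.316, and Sox9 and Nr2f1 the one with the lowest, 0.811 and 0.901, with draws from 0.743 to 0.882 and from 0.768 to 1.06. At 1000 UMIs per cell the ratio of Sox9 and Nr2f1 was 0.885 and 1.28, so its direction in Combo was not kept at that depth. The ratio of Sox9 and Klf5 also changed with depth. In single draws it was 1.596 and 1.318 at 1000 UMIs, 1.458 and 1.463 at 2000 UMIs, and 1.184 and 1.202 at 10000 UMIs.

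**Figure D5:**
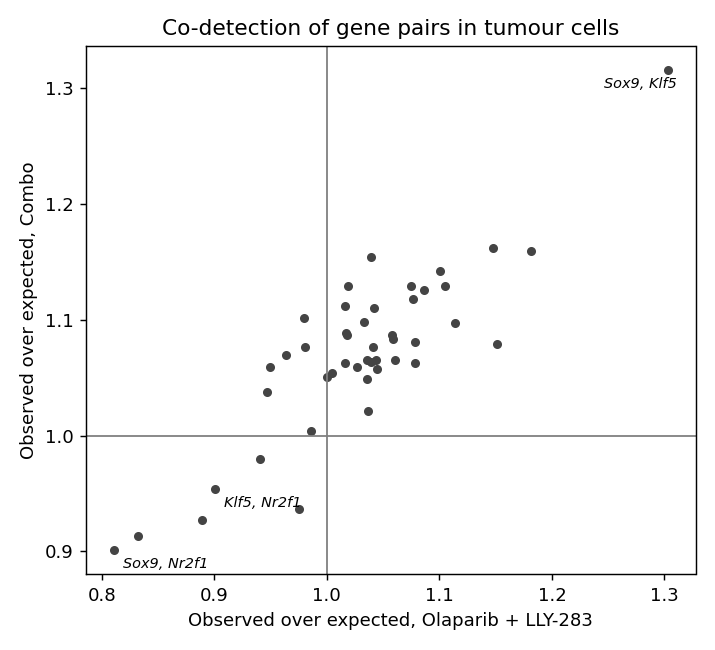
Observed over expected double-positive tumour cells for the 45 pairs of the 10 genes, as the mean of 200 draws at 5000 UMIs per cell, with Olaparib + LLY-283 on the horizontal and Combo on the vertical axis. Each point is 1 pair and the lines are a ratio of 1. Sox9 with Klf5 lies highest, at 1.303 and 1.316, and Sox9 with Nr2f1 lowest.

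An epithelial factor and a mesenchymal factor were often read in 1 cell. At 5000 UMIs a tumour cell held a median of 2 of the 10 genes in both libraries, and 8.35% and 8.97% held none. Sox9 or Klf5 together with Twist1 or Prrx1 were found in 28.5% [27.5 to 29.5] and 26.0% [24.4 to 27.7] of tumour cells, where the separate shares give 28.0% and 25.7%. In fibroblasts it was 10.7% [4.72 to 19.9] of 75 and 15.5% [7.35 to 27.4] of 58 cells. In macrophage-like cells, read as a background, it was 6.90% [1.91 to 16.7] of 58 and 0.697% [0.190 to 1.78] of 574 cells. These shares depend on depth and do not count the cells that express both. At 40000 UMIs, 46 and 1839 tumour cells were deep enough, and they held a median of 7 of the 10 genes. There the joint share was 91.3% [79.2 to 97.6] and 91.7% [90.3 to 92.9], where the separate shares give 91.3% and 91.7%. At that depth Twist1 or Prrx1 was found in 100% and 99.5% of these cells. The joint share could therefore hardly depart from the product of the shares, and the match is no result about co-detection.

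Outside the tumour cells and fibroblasts, Zeb2 and Zeb1 took different classes. Zeb2 read 409 CPM [384 to 436] and 510 CPM [494 to 526] in macrophage-like cells, 268 and 301 CPM in neutrophil-like cells and 0 UMIs in endothelial-like cells of both libraries. Zeb1 read 83.6 CPM [30.7 to 182] and 285 CPM [191 to 409] in endothelial-like cells, on 6 and 29 UMIs in 26 and 12 cells, and 2.55 and 4.43 CPM in macrophage-like cells. In T-like cells Zeb1 read 30.7 CPM [6.33 to 89.8] and 79.5 CPM [55.4 to 110]. The level of Zeb1 was highest in endothelial-like cells in both libraries, and in Olaparib + LLY-283 that interval overlapped the one of fibroblasts. A further 16 and 3 cells of the endothelial cluster passed the limits for tumour cells and were counted there. Their median depths were 8627 and 12714 UMIs, against 2110 and 2981 in the endothelial-like cells.

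The wider families were described by counts from 4 lists, compared between the libraries in tumour cells. Of 29 other factors tied to mesenchymal state, 15 had enough UMIs in tumour cells, and 0 were 1.5-fold higher and 1 lower in Combo, namely Foxq1 at 0.512 [0.454 to 0.578], where 8.52% and 4.71% of all genes tested were. The 3 highest in tumour cells of each library gave 4 genes: Hmga2, a chromatin architectural protein, read 407 and 304 CPM, Sox4 246 and 214 CPM, Prrx2 154 and 132 CPM and Nr2f2 147 and 149 CPM. In fibroblasts Sox4 (257 and 167 CPM), Tcf4 (178 and 177 CPM) and Runx1 (144 and 175 CPM) were highest. The median ratio of Combo over Olaparib + LLY-283 was 0.958 for this list.

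Of 23 epithelial and mammary factors 9 had enough UMIs, and 1 was higher, Gata3, at 1.92 [1.298 to 2.91] on 35 and 101 UMIs, with none lower, beside 8.52% and 4.71% of all genes. Klf6 (358 and 271 CPM), Cebpb (311 and 322 CPM) and Klf4 (136 and 107 CPM) were highest in tumour cells, and Cebpb, Klf4 and Klf6 also in fibroblasts, at 354 and 498 CPM, 387 and 393 CPM, and 374 and 312 CPM. Grhl2 and Ovol1, keepers of epithelial identity, read at most 0.0849 and 0.0212 CPM in tumour cells. Other factors of the list were read there. Tfap2a stood at 27.2 and 32.0 CPM, Trp63 at 9.0 and 9.48 CPM and Esr1 at 8.52 and 10.8 CPM. Stat5a stood at 2.78 and 3.59 CPM and Elf3 at 1.82 and 1.94 CPM. The median ratio for this list was 1.06.

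Of 20 junction and mesenchymal target genes 14 had enough UMIs, with 2 higher, Cdh1 at 1.52 [0.593 to 4.38] on 7 and 16 UMIs and Ocln at 1.54 [0.837 to 2.97] on 16 and 37 UMIs, and 1 lower, Tagln at 0.575 [0.514 to 0.641], beside 8.52% and 4.71% of all genes. The intervals of Cdh1 and Ocln held 1. Cdh1, the junction gene that Snail and ZEB proteins repress, read 0.0742 and 0.113 CPM in tumour cells, and Ocln 0.170 and 0.262 CPM. Not all junction genes were that low. Tjp1 read 54.9 and 64.9 CPM, Dsp 28.3 and 24.7 CPM and Pkp3 13.3 and 15.4 CPM, while Cldn3 and Crb3 had 0 UMIs. Of the cadherins also listed, Cdh2 read 0.0318 and 0.00707 CPM and Cdh11 0.2015 and 0.1768 CPM. Vim, a mesenchymal intermediate filament, read 6575 and 6197 CPM, Acta2 1434 and 1146 CPM and S100a4 1238 and 1279 CPM. In fibroblasts Fn1 (5667 and 4312 CPM), Vim (4957 and 5337 CPM) and Acta2 (562 and 607 CPM) were among the highest of the list. Its median ratio was 0.911.

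Of 12 co-repressors and chromatin modifiers, all 12 had enough UMIs in tumour cells and 0 passed the fold there in either direction. This stood beside 8.52% and 4.71% of all genes, and the median ratio of the list was 1.05. Kdm1a, a histone demethylase that SNAI1 recruits, read 101 and 108 CPM in tumour cells, Hdac1 80.2 and 87.9 CPM, and Ctbp1 80.7 and 81.7 CPM. In fibroblasts Ctbp1 (91.2 and 89.1 CPM), Kdm1a (83.6 and 98.2 CPM) and Hdac2 (68.4 and 75.9 CPM) were highest. Between the libraries, 17, 5, 10 and 11 genes of the 4 lists, in the order above, had enough UMIs in fibroblasts. Of these 1, 1, 2 and 2 were at least 1.5-fold higher in Combo and 2, 0, 1 and 1 lower. Among all genes tested in fibroblasts 10.6% were higher and 6.9% lower.

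Nr2f1, Zeb2, Prrx1 and Zeb1 overlap other annotated genes in the annotation used (GENCODE M21, mm10), and the sources do not state whether counting used strand. Nr2f1 (chromosome 13, 78188973 to 78199757, minus strand) overlaps the antisense gene A830082K12Rik, which had 8177 UMIs against 21776 for Nr2f1. How far reads of the shared stretch entered either count was not tested. A830082K12Rik read 26.5 and 27.9 CPM in tumour cells and 13.3 and 6.02 CPM in fibroblasts, ratios of 0.501 and 0.216 beside 0.496 and 0.391 for Nr2f1. Zeb2 (chromosome 2, 44983632 to 45117395, minus strand) had 26905 UMIs against 1292 in its overlapping genes, Prrx1 (chromosome 1, 163245119 to 163313710, minus strand) 27396 against 1338, and Zeb1 4654 against 114. Sox9, Pax3, Klf5, Snai1, Snai2 and Twist1 overlap no other gene.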

How the data were processed

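Single-cell 3′ RNA libraries of EMT6 tumours were used, 1 for Olaparib + LLY-283 and 1 for Combo. The deposited files hold raw UMI counts per gene and cell, which the authors made with Cell Ranger against mm10. The matrix header names version 6.1.2, and another version is given in the study's methods. Cells needed 200 genes or more and a mitochondrial share below 20%, and doublets were called with Scrublet in scanpy 1.11.5 (0.8% expected per 1000 cells) and removed. Cells of both libraries were clustered jointly with Leiden (resolution 1.3, 2000 variable genes without the genes studied, 30 components, 20 neighbors) and clusters were named by fixed markers. Fibroblasts were the cells of clusters named by fibroblast markers, and tumour cells were gated on keratin and myeloid UMIs.

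UMIs were summed per class and library as CPM, the UMIs of a gene per 1000000 UMIs of the class. Intervals are exact (Poisson for levels, Clopper-Pearson for shares, conditional for ratios) and cover counting error only. A gene was compared when it had at least 20 UMIs over the groups compared. For shares and pairs each cell was thinned to 5000 UMIs and shallower cells were left out, 1332 and 134 tumour cells and 155 and 20 fibroblasts. Pairs needed at least 5 expected double-positive cells. All 10 genes were named, with up to 3 genes most like each in detection (r of at least 0.1 in both libraries). Of each list, those of highest level and those past the fold between the libraries in tumour cells were named. Further genes of the epithelial and junction lists were named outside this rule. The genes and lists were chosen with earlier results of these data known. The ratio step was tested on simulated Poisson counts, and thinning with co-detection on simulated independent genes. Filtering, doublet calling, clustering, naming, gating and likeness were not tested in this way. Alternatives covered doublets, filters, gates, scaling, resolution and depth.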

Additional observations from a re-analysis of the deposited data

How the results depend on the processing

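The count of genes 1.5-fold apart in tumour cells was 0 in each direction under every alternative run for it. Results on fibroblasts depended on which cells were taken. With the doublet calls kept, 5 genes were 1.5-fold higher and 2 lower in Combo fibroblasts, and 2 genes were 2-fold higher and 1 lower in fibroblasts than in tumour cells. At resolution 0.8 the counts between libraries were 5 and 1, and the 30 cells added in Olaparib + LLY-283 had Krt8 at 819 CPM. With fibroblasts gated on markers they were 3 and 1, and 0 genes passed between the classes in either direction. With the mean of per-cell CPM they were 3 and 2, and with no minimum of UMIs 2 genes were higher. Under the marker gate the direction turned for Snai1 between libraries (0.943), for Pax3 between classes (1.34 and 1.42) and for Nr2f1 between classes (1.63 and 1.41). Of 500 single-gene folds recomputed, 444 stayed within their counting interval, 51 left it and 5 turned. Of 120 levels 111 stayed within it. The 444 include folds that could not move. Dropping the minimum of UMIs leaves the folds as they are. At resolution 2.0 the numbers of tumour cells and fibroblasts were those of the main setting. No pair of genes reached the 1.5-fold mark in both libraries under any of the alternatives run for it. All 45 pairs had met the minimum of expected cells, so dropping that minimum could change nothing.

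Alternatives chosen after seeing the data were tumour cells without clusters 9 and 15, tumour cells without a UMI of Col5a2, Twist2 or Cdh11, and pair ratios as the mean of 200 draws. The cause of these changes was not tested. The thinned shares of fibroblasts rest on 75 and 58 cells. No paired analysis was possible because each group holds 1 library and the labels give no replicate numbers.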

Other observations

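Cells that failed the keratin or myeloid limit yet lay in clusters with no class name were left out of the comparisons at the main settings. The alternative gating of fibroblasts on markers did not exclude them. There were 2167 of them in Olaparib + LLY-283 and 555 in Combo, with medians of 3042 and 769 UMIs. The 10 genes were detected in both libraries, with Twist1 at 137 CPM [130 to 146] and 113 CPM [97.4 to 130], Nr2f1 at 88.9 CPM [82.6 to 95.6] and 118 CPM [102 to 136], Pax3 at 45.1 CPM [40.7 to 50.0] and 76.9 CPM [64.2 to 91.5], and Prrx1 at 111 CPM [104 to 118] and 108 CPM [92.4 to 125]. Twist2 rested on 2 and 1 UMIs.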
